A study of Homo sapiens with 3 samples.

Results

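The serpins reported here are 34 genes among the 39320 gene rows that lie on assembled chromosomes in the deposited tables. The members were chosen by name, as the rows whose symbol is SERPIN followed by a clade letter from A to I and a number. A gene that this rule matches is not reported here, so sums and shares cover the 34 members and not the full family. RNA was sequenced in 3 libraries labelled as wild-type HepG2, a human liver cancer line established from a tumor, as replicates 1 to 3 of 1 condition with no treatment, age or second genotype given. The study asked which splice variants of METTL3, an RNA methyltransferase, these cells make. Nothing in the labels says that the replicates came from separate cultures, so the spread between them may be technical.

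A serpin traps its target protease by offering a flexible loop as bait, and when the loop is cut the whole protein changes shape and drags the protease into an inactive complex. Several members have lost this activity and carry hormones or fold other proteins. Clade A holds many plasma proteins that hepatocytes secrete, clade B holds intracellular inhibitors, and the smaller clades include regulators of clotting, fibrinolysis and complement, along with a collagen chaperone. HepG2 is widely used as a source of secreted liver proteins, and clades A, C, D, F and G include serpins of that kind.

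The tables give TPM (a level scaled for gene length and to the same total in every library), FPKM and coverage (the mean depth over a gene, which is not scaled for library size), and no read counts. The highest coverage per FPKM, a relative measure of depth, lay between 11.5 and 13.3 in the 3 libraries. Among 15 hepatocyte marker genes, RBP4 and VTN exceeded 10 TPM and the other 13 stayed under 1 TPM throughout. Listed at 0 in all 3 libraries were 8 of them, the fibrinogen chains FGA, FGB and FGG, the apolipoproteins APOA1, APOA2 and APOB, AHSG and ALB. The summed level of the list ranged from 33.8 to 35.9 TPM, nearly all of it from those 2 genes. The values therefore go against the labelled cell type, and the samples are called the libraries labelled HepG2. Because these are bulk samples, fewer cells expressing a gene and less RNA per cell cannot be told apart.

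The levels below are set beside the stretch of DNA before some of the start sites, because the frequency of CG dinucleotides there is compared with the levels further on. The first sequence shows the single serpin window with a complete heat shock element, the site of the heat shock factors, in 30 bases of the SERPINH1 promoter window (chr11:75562169-75562198, plus strand), with the element in capitals. The RefSeq start site behind this window lies 197 bp inside the deposited SERPINH1 row, so these bases are within the counted gene.
SERPINH1: ttccaactTTCCAGAAGTTTCtcgggacgg
The next 4 sequences are the 100 bases before the start site, with every CG in capitals, of SERPINI1 (chr3:167735621-167735720, plus strand), a member with several TPM, of SERPINB9 (chr6:2903310-2903409, minus strand) and SERPINB5 (chr18:63476858-63476957, plus strand), members with many CG and little or no signal, and of SERPINA7 (chrX:106038728-106038827, minus strand), a secreted clade A member with no CG and no signal.
SERPINI1: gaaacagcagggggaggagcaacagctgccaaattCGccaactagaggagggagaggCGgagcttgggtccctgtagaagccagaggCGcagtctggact
SERPINB9: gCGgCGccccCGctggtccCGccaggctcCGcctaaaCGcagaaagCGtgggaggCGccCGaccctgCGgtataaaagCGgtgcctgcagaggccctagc
SERPINB5: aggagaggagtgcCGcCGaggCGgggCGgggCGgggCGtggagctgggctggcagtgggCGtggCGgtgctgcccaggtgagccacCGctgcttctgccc
SERPINA7: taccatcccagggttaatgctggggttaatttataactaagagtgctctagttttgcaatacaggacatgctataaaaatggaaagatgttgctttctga
The last pair belongs to SERPINB3 (chr18:63661894-63661993, minus strand) and SERPINB4 (chr18:63644257-63644356, minus strand), neighboring genes that differ at 2 of these 100 bases.
SERPINB3: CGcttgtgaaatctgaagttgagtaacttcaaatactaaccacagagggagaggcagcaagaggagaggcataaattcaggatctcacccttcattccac
SERPINB4: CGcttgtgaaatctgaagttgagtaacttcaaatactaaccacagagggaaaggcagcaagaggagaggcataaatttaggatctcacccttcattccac
All sequences are from RefSeq on GRCh38.p14, read 5′ to 3′ on the strand of the gene. The 100-base stretches of 14 of the 27 serpins with a promoter window overlap an annotated exon and are not shown, except for the 30 bases of SERPINH1. Of the stretches shown, those of SERPINI1, SERPINB4 and SERPINB9 lie partly within the counted gene. Their start sites are 77, 63 and 9 bp inside the deposited rows.

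In the libraries labelled HepG2, the summed TPM of the 34 members came almost wholly from SERPINH1, SERPINB6, SERPINB1 and SERPINB8. Together these held 95.3% ± 0.0901 (SD, n = 3) of it. By coverage, SERPINI1 and SERPINE2 lay above SERPINB8. The sum over the 34 members was 257, 249.8 and 251 TPM in replicates 1, 2 and 3, a mean of 253 ± 3.75 TPM (SD, n = 3). At least 1 TPM in every library was reached by 7 of the 34 members, or 20.6%, whereas 33.8% of all gene rows and 59.5% of the 18739 protein-coding rows did so. Another 19 members, or 55.9%, were listed at 0 in all 3 libraries, against 20.0% of protein-coding rows. SERPINF1 reached 1 TPM in 1 library, and the remaining 7 members lay below it without being listed at 0 everywhere. The median of the members was 0 TPM, and that of the protein-coding rows was 4.99 TPM. These counts set the serpins beside the other genes of the same libraries and were not tested, since the members of a gene family are not independent.

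**Figure D1:**
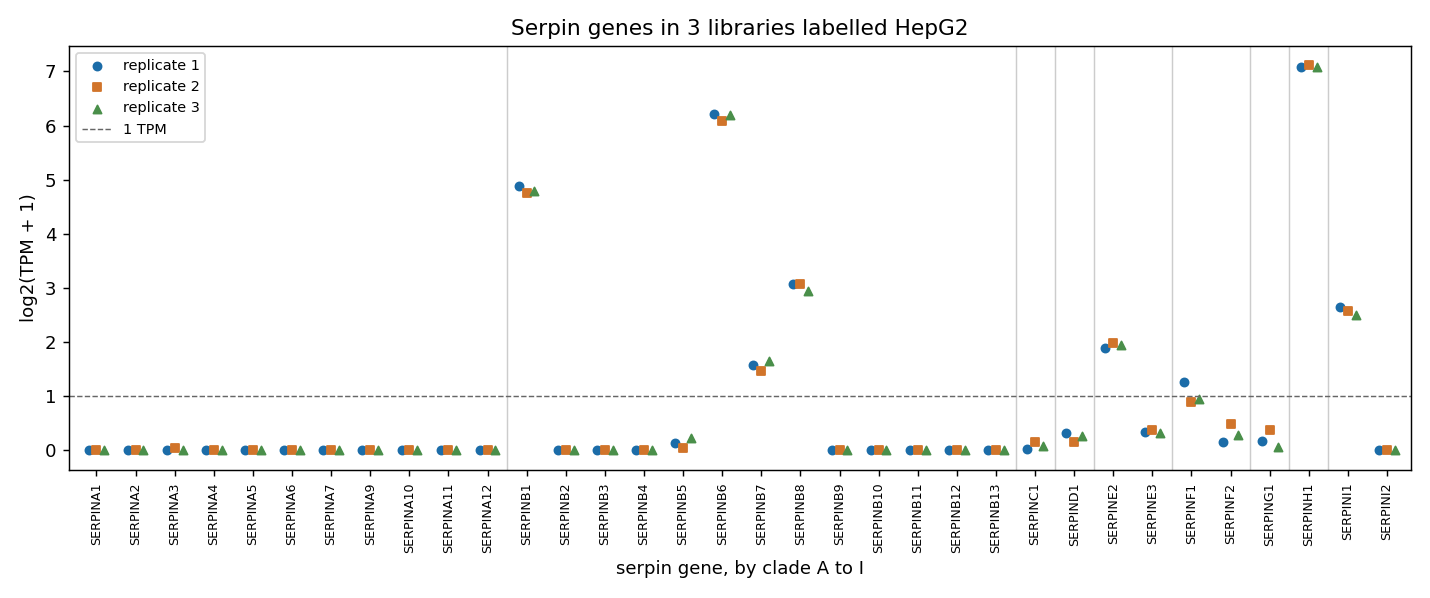
Level of the 34 serpins as log2(TPM + 1), ordered by clade on the horizontal axis, with a symbol for each of the 3 libraries and a dashed line at 1 TPM. SERPINH1 and SERPINB6 stand above the other members in every library, the 11 clade A genes lie at or near 0, and the symbols of each member above the line lie close together.

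SERPINH1 was the leading member. It encodes HSP47, a resident of the endoplasmic reticulum that binds newly made collagen chains and does not inhibit proteases. The gene lies on the plus strand of chromosome 11 (chr11:75562056-75572804, GRCh38), and its canonical GENCODE v44 transcript has 5 exons. The 3 replicates had 135, 138 and 134 TPM, or 136 ± 1.94 TPM (SD, n = 3). These values differ by a few percent of the mean, the lowest coefficient of variation among the members with a mean of at least 1 TPM, at 1.43%. Within each library SERPINH1 alone made up 52.7%, 55.1% and 53.3% of the serpin sum. Its mean exceeded that of 92.3% of the 13753 gene rows with a mean of at least 1 TPM.

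SERPINB6 followed. It is an intracellular serpin known to inhibit cathepsin G, and it lies on the minus strand of chromosome 6 (chr6:2948159-2972165). Its level was 73.5, 66.8 and 72.4 TPM in replicates 1, 2 and 3, with a mean of 70.9 ± 3.62 TPM (SD, n = 3). SERPINH1 was 1.91 times as high by the means, with no overlap between their libraries. SERPINB1, the inhibitor of neutrophil elastase, proteinase 3 and cathepsin G, is found in the same gene cluster (chr6:2832332-2842049). It had 28.4, 26.1 and 26.7 TPM in replicates 1, 2 and 3, or 27.1 ± 1.21 TPM (SD, n = 3).

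SERPINB6 exceeded SERPINB1 by 1.39 ± 0.04 on the log2 scale of TPM (SD, n = 3), and their libraries did not overlap. Each pair of neighbors in the order of the 8 members whose mean was 1 TPM or more had separate ranges, so the order by TPM was the same in all 3 libraries.

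The next 4 members had a few TPM each. SERPINB8, an inhibitor of the proprotein convertase furin, had 7.42, 7.46 and 6.75 TPM in replicates 1, 2 and 3. SERPINI1, or neuroserpin, an inhibitor of tissue-type plasminogen activator best known from neurons, had 5.25, 4.94 and 4.65 TPM. SERPINE2, or protease nexin 1, which inhibits thrombin and urokinase, had 2.71, 2.94 and 2.85 TPM. All 3 genes were several-fold lower than SERPINB1 in each library. SERPINB7, a clade B member known from skin, had 1.97, 1.77 and 2.15 TPM and was the lowest of the 7 members above 1 TPM throughout. SERPINF1, which encodes the secreted factor PEDF and is not an inhibitor, straddled the limit with 1.40, 0.850 and 0.931 TPM. The row of SERPINI1 overlaps that of PDCD10, on the other strand with 73.7 ± 3.14 TPM (SD, n = 3), over 167 bp.

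The libraries were close to each other for these genes. The spread of log2(TPM + 1) between the highest and the lowest library exceeded 1 in 0 of the 8 members whose mean was 1 TPM or more, and in 1.26% of all gene rows at such a mean. The widest was SERPINF1, with a range of 0.38. For the 3 members with a mean of at least 10 TPM the median coefficient of variation was 4.46%, beside 4.88% over all 8419 gene rows at that level.

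By clade, H held 53.7% ± 1.27 of the summed TPM through its only gene, and B held 42.4% ± 1.36, nearly all of it through 4 of its 13 genes (SD, n = 3). Clade I had 1.96% ± 0.0992 (SD, n = 3), from SERPINI1, since SERPINI2 was listed at 0. SERPINE2 and SERPINE3 of clade E had 1.23% ± 0.0657 (SD, n = 3). Clade F held 0.516%, and clades A, C, D and G each held less than that. The 11 clade A members, the largest secreted group here, summed to 0 TPM in replicates 1 and 3 and to 0.0304 TPM in replicate 2.

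**Figure D2:**
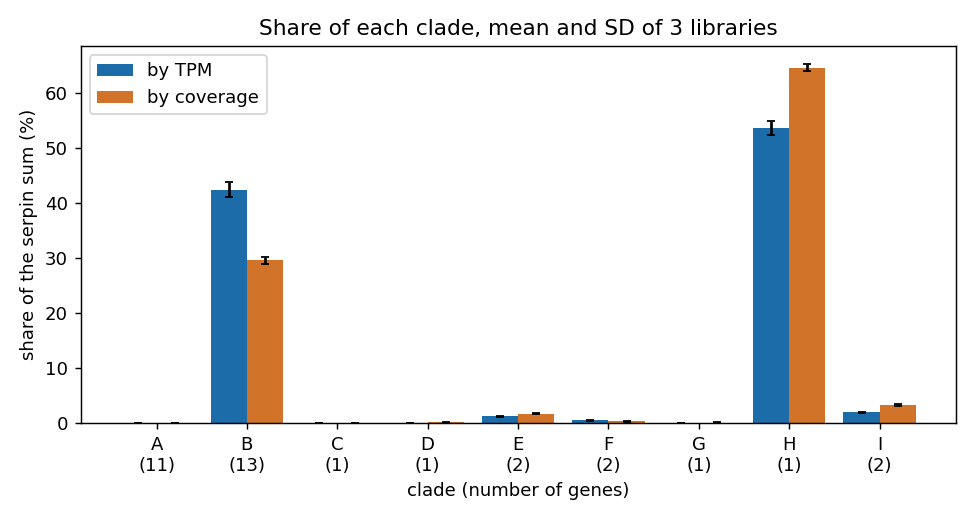
Share of the summed level of the 34 serpins held by each clade, in percent, by TPM and by coverage, with bars for the mean and error bars for the SD of 3 libraries, and the number of genes under each letter. Clade H is highest by both measures, and clade B falls from 42.4% by TPM to 29.6% by coverage while clade H rises from 53.7% to 64.7%.

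The order below SERPINH1 depended on the measure. By coverage SERPINH1 had a mean depth of 526, 521 and 451 in replicates 1, 2 and 3, followed by SERPINB1 with 138, 125 and 113. SERPINB6, next to SERPINH1 by TPM, came after SERPINB1 with 101, 96.6 and 83.4. The log2 ratio of SERPINB6 to SERPINB1 was 1.39 ± 0.04 by TPM but -0.42 ± 0.04 by coverage (SD, n = 3). The order of SERPINB8 and SERPINI1 was also reversed, with a log2 ratio of 0.54 ± 0.05 by TPM and -1.87 ± 0.05 by coverage (SD, n = 3). SERPINE2, with a mean depth of 11.7, also lay above SERPINB8, with 6.92, by coverage. Of the 8 members with a mean of 1 TPM or more, 6 had another place in the order of all members by coverage. SERPINF1 is counted there only because SERPINE3, whose mean is below 1 TPM, had more coverage, at 1.62 against 1.44. Coverage per FPKM was taken relative to the highest ratio in the library. It was 0.859 for SERPINI1, 0.773 for SERPINB1, 0.695 for SERPINE2 and 0.617 for SERPINH1. The other members of the 8 were lower, with 0.234 for SERPINF1, 0.229 for SERPINB7, 0.222 for SERPINB6 and 0.161 for SERPINB8. GENCODE v44 lists 7 transcripts for SERPINI1, 5 for SERPINB1, 10 for SERPINE2 and 16 for SERPINH1. It lists 12 for SERPINF1, 7 for SERPINB7, 25 for SERPINB6 and 9 for SERPINB8. The part that the number and length of transcripts play in these ratios was not tested, and the tables hold 1 value per gene. The order of SERPINB6 and SERPINB1, and the place of SERPINB8 above SERPINI1 and SERPINE2, are therefore given for TPM only.

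**Figure D3:**
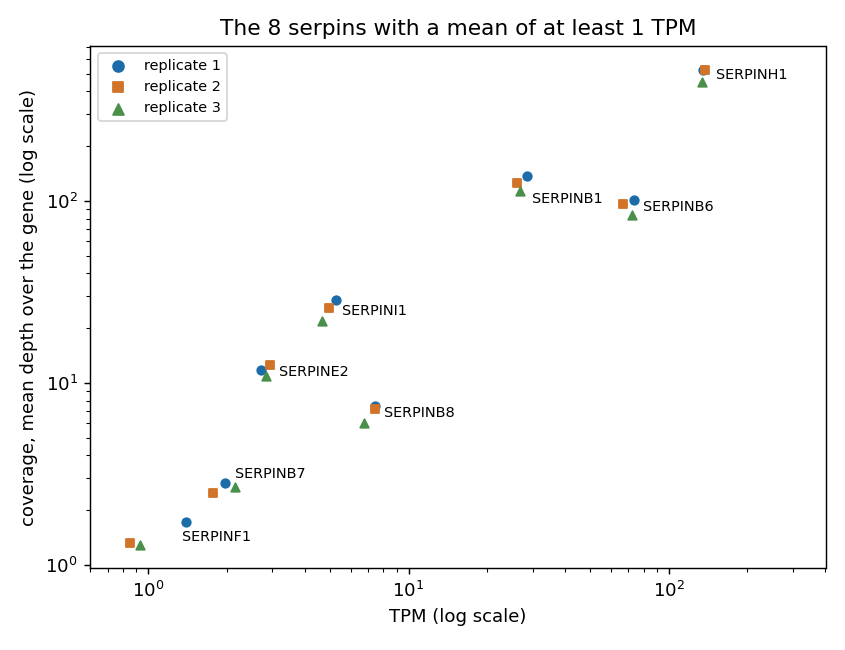
Coverage, the mean depth over a gene, against TPM for the 8 serpins with a mean of at least 1 TPM, both on log axes, with a symbol for each library. SERPINB6, SERPINB8, SERPINB7 and SERPINF1 lie to the right of the line formed by SERPINB1, SERPINI1 and SERPINE2, so that their coverage is low for their TPM.

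Most of the members known from plasma, and all members of clade A, were near or at 0. SERPINA1, which encodes alpha-1 antitrypsin, was listed at 0 in all 3 libraries, as were SERPINA4 (kallistatin), SERPINA5 (the protein C inhibitor), SERPINA6 and SERPINA7 (the carriers of cortisol and thyroxine), SERPINA10 (the inhibitor that depends on protein Z), SERPINA12 (vaspin), SERPINA2, SERPINA9 and SERPINA11. SERPINA3, alpha-1 antichymotrypsin, had 0.0304 TPM in replicate 2 and was listed at 0 in the others. SERPINC1, or antithrombin, the main inhibitor of thrombin and factor Xa, had 0.0223, 0.121 and 0.0627 TPM in replicates 1, 2 and 3. SERPIND1, or heparin cofactor II, had 0.251, 0.118 and 0.203 TPM. SERPINF2, the inhibitor of plasmin, had 0.115, 0.396 and 0.220 TPM, and SERPING1, which inhibits the first complement proteases, had 0.122, 0.3004 and 0.0491 TPM. None of these genes reached 1 TPM in any library, while SERPINF1, whose product is also secreted, reached 1.40 TPM in replicate 1. The order of SERPINC1, SERPIND1, SERPINF2 and SERPING1 differed between libraries. AGT, the angiotensin precursor and a serpin under another symbol, had 1.26, 1.42 and 1.31 TPM. The naming rule does not include AGT, so it is not counted in any clade here.

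The low values rest on little sequence. The 7 members that were above 0 in some library and below 1 TPM in all had a coverage of at most 1.96 in any library, and 6 of them were above 0 in all 3. SERPINE3 had 0.273, 0.292 and 0.244 TPM, and its row overlaps that of INTS6, on the other strand with 9.39 ± 0.832 TPM (SD, n = 3), over 12284 bp. The whole of SERPIND1 lies within the row of PI4KA, on the other strand with 30.9 ± 1.28 TPM (SD, n = 3). The strand setting of the counting is not given in the sources used here, so reads of these overlapping genes cannot be told apart. SERPINB5, or maspin, had 0.107, 0.0329 and 0.172 TPM, and its libraries differ by several-fold at a depth of less than 1. With no counts in the files, the smallest level that the reads could show is unknown, and a gene listed at 0 is not shown to be silent.

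Among the 34 members, all of clade B and all but SERPINA7 of clade A lie in 3 clusters. On chromosome 14, 10 clade A genes occupy 344 kb (chr14:94280460-94624053), of which 9 were listed at 0 in every library and 0 reached 1 TPM. The 2 rows of other genes within this span were also listed at 0, and PPP4R4, the gene before it, had a mean of 0.0452 TPM. On chromosome 18, 10 clade B genes occupy 543 kb (chr18:63476958-64019779). SERPINB8, the last gene of this cluster, and SERPINB7 were above 1 TPM, SERPINB5, the first, was below it, and the remaining 7 were listed at 0. These 7 were SERPINB2, an inhibitor of urokinase, SERPINB3 and SERPINB4, the squamous cell carcinoma antigens, SERPINB10, SERPINB11, SERPINB12 and SERPINB13. SERPINB3 and SERPINB4 are close copies whose reads could be split between them or left out as ambiguous. How the counting treated such reads is not given in the sources used here, so their values of 0 are uncertain. VPS4B, just before the cluster, had a mean of 26.6 TPM.

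The chromosome 6 cluster spans 140 kb (chr6:2832332-2972165) and holds SERPINB1, SERPINB9 and SERPINB6 in that order, all on the minus strand. SERPINB9, the intracellular inhibitor of granzyme B, was listed at 0 in every library, although the serpins on either side of it, SERPINB1 and SERPINB6, had 27.1 and 70.9 TPM. Rows of other genes lie between them, of which SERPINB9P1 had 4.62 TPM and the others were below 1 TPM. WRNIP1, the gene before the cluster, had a mean of 33.5 TPM. Thus 2 of 3 members here, 2 of 10 on chromosome 18 and 0 of 10 on chromosome 14 reached 1 TPM in every library, beside the 59.5% of protein-coding rows.

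The promoter windows of RefSeq, which run from 250 bases before a start site to 50 bases after it, were available for 27 serpins. SERPINA2, SERPINB10, SERPINB11, SERPINC1, SERPINF1, SERPINF2 and SERPING1 had none. The CpG ratio compares the number of CG dinucleotides with that expected from the C and G content, and CG-rich start sites are typical of widely expressed genes. The median ratio was 0.762 in the 7 serpins with at least 1 TPM in every library and 0.220 in the other 20. Split at 0.1 TPM instead, the medians were 0.508 and 0.220, which lowers the difference from 0.54 to 0.29. In the protein-coding genes with a window, the medians were 0.851 for the 9246 genes at 1 TPM or more and 0.389 for the other 5715, so the serpins differed in the same direction as genes in general. SERPINB6 had a ratio of 0.912, SERPINH1 of 0.841, SERPINB1 of 0.839 and SERPINE2 of 0.762. SERPINB8 had 0.508 and SERPINI1 had 0.492, so 4 of the 7 members at 1 TPM or more in every library were above 0.6. Of the other 20, 2 were above 0.6, and the share of protein-coding genes above it was not counted. SERPINB9 is the exception among the members at 0, with a ratio of 0.819 and 11 CG in the 100 bases printed above, and SERPINB5 had 0.602. SERPINB7, with 2 CG in its 300 bases and a ratio of 0.0953, is the lowest of the 7 members at 1 TPM or more in every library. These ratios describe the sequence, and methylation was not measured. The start sites of 5 windows lie more than the length of a window from the 5′ end of the deposited row and may not be those counted, at 23205 bp for SERPINB12, 3887 bp for SERPINE3, 689 bp for SERPINB13, 679 bp for SERPINE2 and 598 bp for SERPINB6. SERPINE2 and SERPINB6 are among the members with a high ratio named above.

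**Figure D4:**
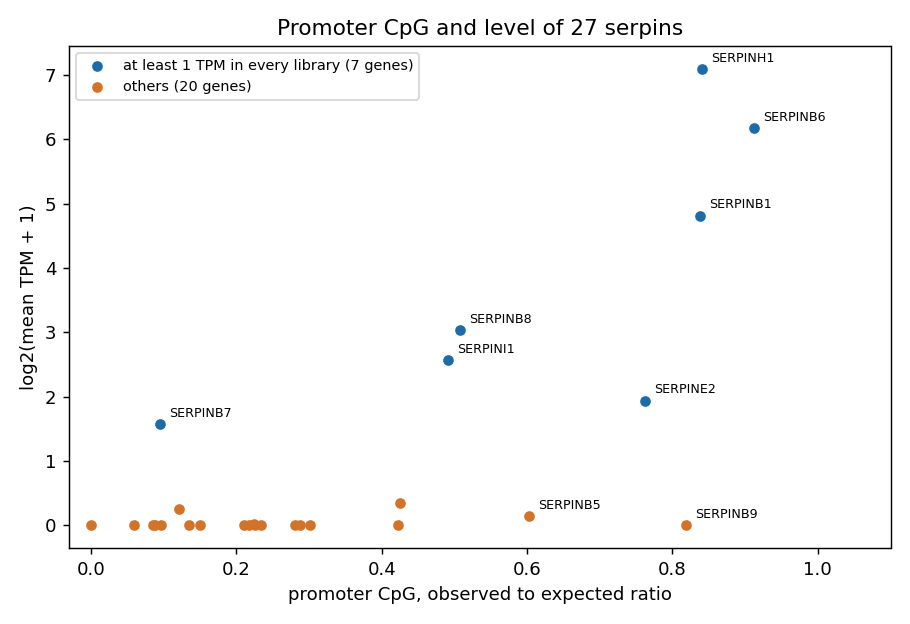
Observed to expected CpG ratio of the promoter window on the horizontal axis against log2(mean TPM + 1) for the 27 serpins with a window, colored by whether they had at least 1 TPM in every library. SERPINH1, SERPINB6 and SERPINB1 combine a ratio above 0.8 with the highest levels, while SERPINB9 has such a ratio at 0 TPM and SERPINB7 has 1.96 TPM at a ratio near 0.1.

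The heat shock element printed for SERPINH1, 3 alternating blocks searched on both strands as TTC, GAA and TTC with any 2 bases (NN) between the blocks, lies 76 to 64 bases before the start site. It was found in 106 of the 22488 genes with a window, or 0.471%, and in 1 of the 27 serpins. The letters of the TATA box, TATAAA, were searched on both strands anywhere in the window. They were found in 11.7% of all windows and in 6 serpins, SERPINA7, SERPINB2, SERPINB8, SERPINB9, SERPINB13 and SERPINI2. Of these 6, SERPINB8 alone was above 1 TPM, as were 7 of all 27 serpins with a window. The share above 1 TPM among all genes with these letters was not counted. A match of letters does not show that a factor was bound.

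The serpins were next set beside genes whose products work with them. A list of 14 genes covered factors that fold and modify collagen in the endoplasmic reticulum, where HSP47 acts, and receptors that return it there. All 14 had at least 10 TPM in every library, as did 40.4% of protein-coding rows, and the median of the 14 was 86.5 TPM. PPIB, the prolyl isomerase of the collagen prolyl 3-hydroxylation complex, had 663 ± 6.80 TPM, the chaperone HSPA5 had 606 ± 22.2 TPM, and FKBP10, another prolyl isomerase for collagen, had 153 ± 2.62 TPM (SD, n = 3). SERPINH1, at 136 TPM, lay among them. The receptors in the list return HSP47 to the endoplasmic reticulum by its tail signal. KDELR2 had 233 ± 15.9 TPM, KDELR1 had 171 ± 9.52 TPM and KDELR3 had 33.4 ± 0.209 TPM (SD, n = 3).

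Of 9 collagen chains, the clients of HSP47, 5 reached 1 TPM in every library, or 55.6%, beside 59.5% of protein-coding rows. The basement membrane chains COL4A2 and COL4A1 had 161 ± 10.9 and 66.7 ± 6.23 TPM, COL5A1 had 132 ± 7.11 TPM and COL6A1 had 29.97 ± 0.233 TPM (SD, n = 3). Chains that pair with some of these in a triple helix were below 1 TPM in every library. COL5A2 had 0.109 ± 0.0456 TPM, COL6A2 had 0.478 ± 0.0810 TPM, and COL1A2 had 0.0210 ± 0.0231 TPM where COL1A1 had 6.93 ± 0.564 TPM (SD, n = 3).

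Of 32 proteases that serpins inhibit, 10 reached 1 TPM in every library, or 31.3%, beside 59.5% of protein-coding rows, and 11 were listed at 0 throughout, as were 20.0% of protein-coding rows. PLAT, or tissue-type plasminogen activator, which SERPINI1 inhibits, had 1.69, 1.80 and 1.89 TPM in replicates 1, 2 and 3, below SERPINI1 in each library. PLAU, or urokinase, which SERPINE2 inhibits, had 1.05, 0.891 and 0.794 TPM, below SERPINE2 in each library. The myeloid proteases that SERPINB1 and SERPINB6 inhibit were at or near 0, with ELANE and CTSG listed at 0 in every library and PRTN3 at 0.0468 TPM in replicate 3 only. GZMB, the target of SERPINB9, was listed at 0 as well.

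Other targets were higher than the inhibitor named with them. CTSL, a lysosomal protease inhibited by SERPINB3, had 188 ± 2.85 TPM, the highest of the list, with SERPINB3 listed at 0. That 0 is uncertain, because reads shared with SERPINB4 may have been left out as ambiguous. C1S and C1R, the complement proteases that SERPING1 inhibits, had 36.2 ± 0.665 and 13.6 ± 0.787 TPM (SD, n = 3), against at most 0.3004 TPM of SERPING1 in any library. FURIN had 63.5 ± 3.30 TPM (SD, n = 3) beside the 7.21 ± 0.402 TPM of SERPINB8. Of 8 receptors and cofactors, 7 had at least 10 TPM in every library, beside the 40.4% of protein-coding rows. LRP1, the receptor that clears complexes of serpins and proteases, had 40.7 ± 2.09 TPM, LRP8 had 69.5 ± 5.04 TPM and VLDLR had 16.0 ± 0.923 TPM (SD, n = 3), while LRP2 was below 1 TPM. PNPLA2, a binding partner of the SERPINF1 product, had 37.4 ± 2.16 TPM (SD, n = 3). RNA levels do not give the activity of a protease or of its inhibitor.

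**Figure D5:**
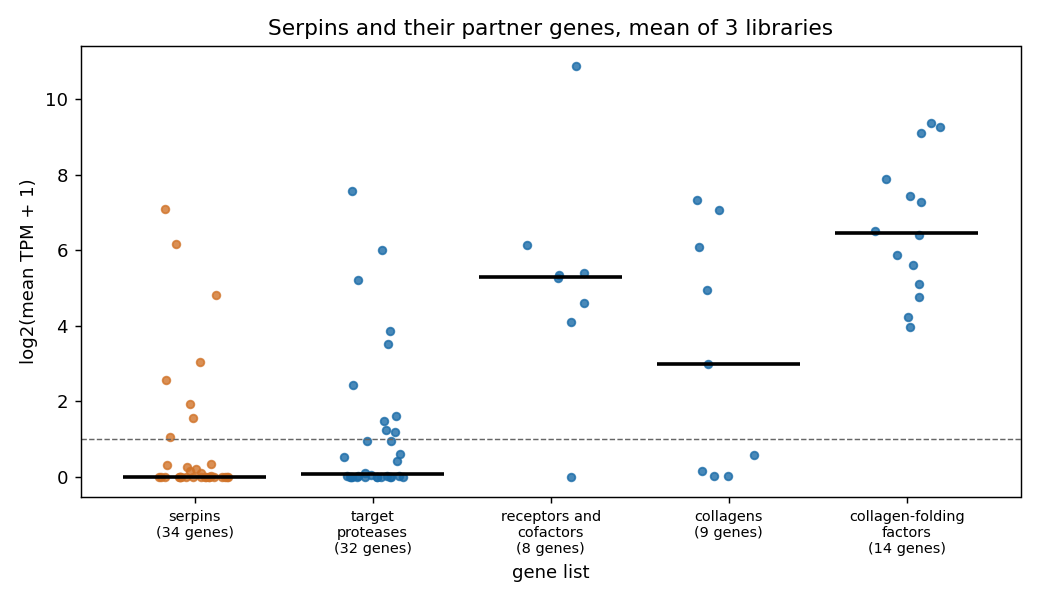
Levels of the 34 serpins and of 4 lists of partner genes as log2(mean TPM + 1), with a point for each gene, a black line at the median of each list and a dashed line at 1 TPM. All 14 genes of the collagen-folding list, which includes the receptors that return HSP47, lie above the dashed line, while most serpins and most target proteases lie below it.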

How the data were processed

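The submitters' processing notes name FastQC 0.11.8, Trim Galore 0.6.2, STAR 2.6.1a, StringTie and GRCh38. The annotation and strand setting are not given in the sources used here. For each of the 3 libraries the authors deposited a table of genes. In the deposited tables, TPM is scaled for length and sums to the same total in each library, FPKM is scaled for length and library size, and coverage is unscaled mean depth. There are no counts, so depth is unknown, and the SD over libraries stands for the precision.

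The tables were matched on symbol, position and strand, and the 39320 rows on assembled chromosomes and the mitochondrial genome were used. Protein-coding rows were those of that type in RefSeq (GRCh38.p14). Promoter windows were those nearest the 5′ end of the deposited row. Exons came from GENCODE v44. The design has 1 condition, so no test was run. The members, the lists of proteases, receptors, collagens, folding factors and hepatocyte markers, and AGT were chosen with earlier results of these data known. A gene that the naming rule matches is not reported here and is left out of every serpin count, sum and share. Each other serpin was named, per library unless listed at 0. List genes could be named from a mean of 1 TPM upward. Those below it, the genes beside or overlapping the members and the serpins singled out for their CpG ratio were named after their values were seen. The counting of ranges and the scaling were tested on simulated data. Alternatives were other limits, FPKM or coverage in place of TPM, a pseudocount of 0.1, median-of-ratios scaling, scaling without mitochondrially encoded genes, other promoter windows and leaving out each replicate. Python 3.11.15, numpy 2.4.6, pandas 2.3.3 and matplotlib 3.10.9 were used.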

Additional observations from a re-analysis of the deposited data

How the results depend on the processing

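The alternatives were chosen with earlier results of these data known, and the mean over promoter windows was added after the values were seen. The number of serpins at the limit in every library was 7, against 3 with a limit of 10 TPM, 11 with 0.1 TPM and 14 with any value above 0. It was 6 by FPKM, where SERPINB7 dropped out, and 8 without mitochondrially encoded genes, where SERPINF1 was added, and stayed at 7 with median-of-ratios scaling. The summed TPM of 253 rose to 316 without mitochondrially encoded genes, which took 19.9% to 20.2% of all TPM, and 8 of the 15 members above 0 rose by more than 1 SD under this setting. The share of SERPINH1, the only gene of clade H, was 64.7% by coverage in place of 53.7% by TPM. The difference in median CpG ratio between the 2 classes of serpins was 0.54, fell to 0.29 when the classes were split at 0.1 TPM and was 0.36 with the mean over all windows of a gene. With each replicate left out, the count was again 7, the sum ranged from 251 to 254 TPM and the share of SERPINH1 from 52.97% to 54.2%. The mean of 2 of 3 libraries always lies within 1 SD of the mean of 3, so nothing about stability follows. None of the 8 serpins whose mean was 1 TPM or more had a log2 range above 1 with a pseudocount of 1 or 0.1. With a pseudocount of 0.1 and no filter, also added after the values were seen, 3 low members did, SERPING1 (1.42), SERPINF2 (1.20) and SERPINB5 (1.03). With a pseudocount of 1, members below 1 TPM cannot exceed 1. No paired analysis was possible because all libraries belong to 1 condition. The unknown depth limits every member listed at 0.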

Other observations

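Rows that carry a serpin name but fall outside the naming rule were also looked at. SERPINB9P1, a pseudogene relative of SERPINB9 that GENCODE v44 lists as a long noncoding RNA, lies between SERPINB1 and SERPINB9 on the minus strand of chromosome 6 (chr6:2854657-2876510). It had 5.19, 4.32 and 4.34 TPM in replicates 1, 2 and 3, a mean of 4.62 ± 0.494 TPM (SD, n = 3), and a coverage of 32.5, 26.5 and 23.9, whereas SERPINB9 itself was listed at 0 in all 3 libraries. How reads that fit both rows were assigned was not tested. SERPINA13P, beyond SERPINA3 on chromosome 14, was listed at 0 throughout. SERPINA1, SERPINA2, SERPINA6, SERPINA10 and SERPINF2 each have a second row on an alternate contig, and all 5 of these rows were listed at 0, so that adding them changes no value.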
